A study of Rattus norvegicus with 10 samples.

Results

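Kupffer cell and macrophage markers were examined in rat liver after 3 days on an iron-deficient diet, to ask whether the resident macrophages of the liver differed in their gene expression from those of pair-fed rats. The markers are 10 genes, Cd68, Cd163, Marco, Csf1r, Clec4f, Vsig4, C1qa, C1qb, C1qc and Adgre1. A gene was taken as measured where the annotation of the array pairs a probe set, a set of short probes designed against 1 transcript, with that gene and no other. By this rule 8 of the 10 markers were measured, out of 14217 genes in all, with 1 probe set each. Marco and Vsig4 had no such probe set and were not analysed here.

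The values came from 10 male Sprague-Dawley rats aged 5 weeks, with 1 liver array per rat. The iron-deficient group (n = 5) received a diet with about 3 ppm iron ad libitum, and the pair-fed group (n = 5) received the control diet with 48 ppm iron, in amounts matched to the intake of the iron-deficient rats. All the rats had first been trained on the control diet to eat in a daily feeding window, and the livers were taken on day 3 after 1.5 h of feeding. The source field of the control samples names the iron-deficient diet, whereas their titles and treatments name the control diet, by which they were grouped.

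Kupffer cells are the resident macrophages of the liver and sit in the sinusoids, the small vessels between the plates of hepatocytes. They clear particles, bacteria and aged red cells from the blood, and with splenic macrophages they recover iron from the hemoglobin of those cells. Their maintenance depends on the receptor encoded by Csf1r and on macrophage transcription factors such as PU.1.

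No marker passed any test of the difference between the diets. In the rank products (RP) method each iron-deficient array is set against each pair-fed array, all probe sets are ranked by their difference in each of these 25 contrasts, and the ranks are combined. The threshold was a false discovery rate (FDR) under 0.05 from 100 permutations. Of all 31042 probe sets tested, 94 (0.303%) passed as higher and 174 (0.561%) as lower in the iron-deficient group, and 0 of the 8 markers passed in either direction. With limma, which weighs the difference against the spread between rats, 0 probe sets (0%) had a Benjamini-Hochberg adjusted p under 0.05, and 2168 (6.98%) had an unadjusted p under 0.05, with 0 of the 8 markers among them. The groups did not overlap for 401 probe sets (1.29%), and they overlapped for all 8 markers. The mean was lower in the iron-deficient group for 7 markers and higher for 1, Adgre1, and the median log2 fold change (iron-deficient minus pair-fed) was -0.12 over the 8 markers and 0.00 over all probe sets, 48.6% of which had a lower mean in the iron-deficient group.

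The 3 chains of C1q, the recognition protein of the classical complement pathway, are encoded by C1qa, C1qb and C1qc, and macrophages are their main source in many tissues. All signals are robust multiarray average (RMA) values on the log2 scale, in which 1 unit is a doubling. C1qa had signals of 10.46, 10.41, 10.52, 10.69 and 10.88 in iron-deficient rats 1 to 5, against 11.12, 10.61, 10.86, 10.63 and 10.41 in pair-fed rats 1 to 5. Pair-fed rat 1 was the highest and pair-fed rat 5 the lowest of all, so that the iron-deficient values lay inside the pair-fed range. The log2 fold change of C1qa was -0.13 (standard error, SE, 0.130; 95% interval -0.41 to 0.15; limma adjusted p = 0.867; exact permutation p = 0.413).

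C1qb had signals of 9.82, 10.13, 10.21, 10.32 and 10.46 in the iron-deficient rats, against 10.74, 10.29, 10.47, 10.24 and 10.22 in the pair-fed rats. Iron-deficient rats 1, 2 and 3 were below every pair-fed rat, while rats 4 and 5 lay within the pair-fed range. The means were 10.19 ± 0.239 in the iron-deficient group and 10.39 ± 0.218 in the pair-fed group (SD, n = 5 each), a log2 fold change of -0.20 (SE 0.126; 95% interval -0.48 to 0.07; limma adjusted p = 0.783). C1qc had signals of 9.75, 9.40, 9.49, 9.64 and 9.88 in the iron-deficient rats, against 10.14, 9.61, 9.84, 9.65 and 9.50 in the pair-fed rats. Its highest rat was again pair-fed rat 1 and its lowest iron-deficient rat 2, with a log2 fold change of -0.12 (SE 0.124; 95% interval -0.38 to 0.15).

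Clec4f and Cd163 encode surface receptors. Clec4f, a C-type lectin that in rodents marks Kupffer cells among the macrophages, had signals of 11.03, 10.99, 11.05, 11.25 and 11.22 in the iron-deficient rats, against 11.73, 11.21, 11.27, 11.33 and 11.00 in the pair-fed rats. Every iron-deficient rat was below the pair-fed median, but 4 of the 5 were above pair-fed rat 5. The log2 fold change of Clec4f was -0.20 (SE 0.116; 95% interval -0.45 to 0.05; limma adjusted p = 0.770; exact permutation p = 0.151).

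Cd163, the scavenger receptor that takes up hemoglobin bound to haptoglobin, had signals of 8.19, 7.65, 8.28, 8.19 and 8.15 in the iron-deficient rats, against 8.17, 8.13, 8.02, 8.11 and 8.06 in the pair-fed rats. Iron-deficient rat 2 was the lowest of all and the other 4 iron-deficient rats were above the pair-fed median. The means were almost equal, at 8.09 ± 0.250 in the iron-deficient group and 8.10 ± 0.0596 in the pair-fed group (SD, n = 5 each). The log2 fold change of -0.01 (SE 0.105; 95% interval -0.23 to 0.22; limma adjusted p = 0.996) became 0.10 without iron-deficient rat 2 and 0.01 without pair-fed rat 1.

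Cd68, a glycoprotein of lysosomes and endosomes, had the largest difference of the 8 markers. Its signals were 9.11, 9.08, 8.98, 9.02 and 9.25 in the iron-deficient rats, against 9.79, 9.27, 9.38, 9.17 and 9.00 in the pair-fed rats. All 5 iron-deficient rats were below the pair-fed median, 1 of them was below the lowest pair-fed rat, and the spread was wider among the pair-fed rats. The means were 9.09 ± 0.102 in the iron-deficient group and 9.32 ± 0.295 in the pair-fed group (SD, n = 5 each). The log2 fold change was -0.23 (SE 0.122; 95% interval -0.50 to 0.03; limma adjusted p = 0.742; exact permutation p = 0.103; RP FDR = 0.545).

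Csf1r, the receptor for the growth factors CSF1 and IL-34, had signals of 8.76, 8.50, 8.50, 8.55 and 8.84 in the iron-deficient rats, against 8.90, 8.61, 8.67, 8.60 and 8.53 in the pair-fed rats. Iron-deficient rats 1 and 5 stood with pair-fed rat 1 at the top, and the log2 fold change was -0.03 (SE 0.0913; 95% interval -0.23 to 0.16). Adgre1, which encodes a receptor of the adhesion G protein-coupled family used as a macrophage marker in mice, had signals of 7.40, 7.28, 7.46, 7.32 and 7.73 in the iron-deficient rats, against 7.70, 7.39, 7.55, 7.22 and 7.07 in the pair-fed rats. Both the pair-fed rats 4 and 5 were below every iron-deficient rat, and the log2 fold change was 0.05 (SE 0.121; 95% interval -0.21 to 0.31).

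**Figure D1:**
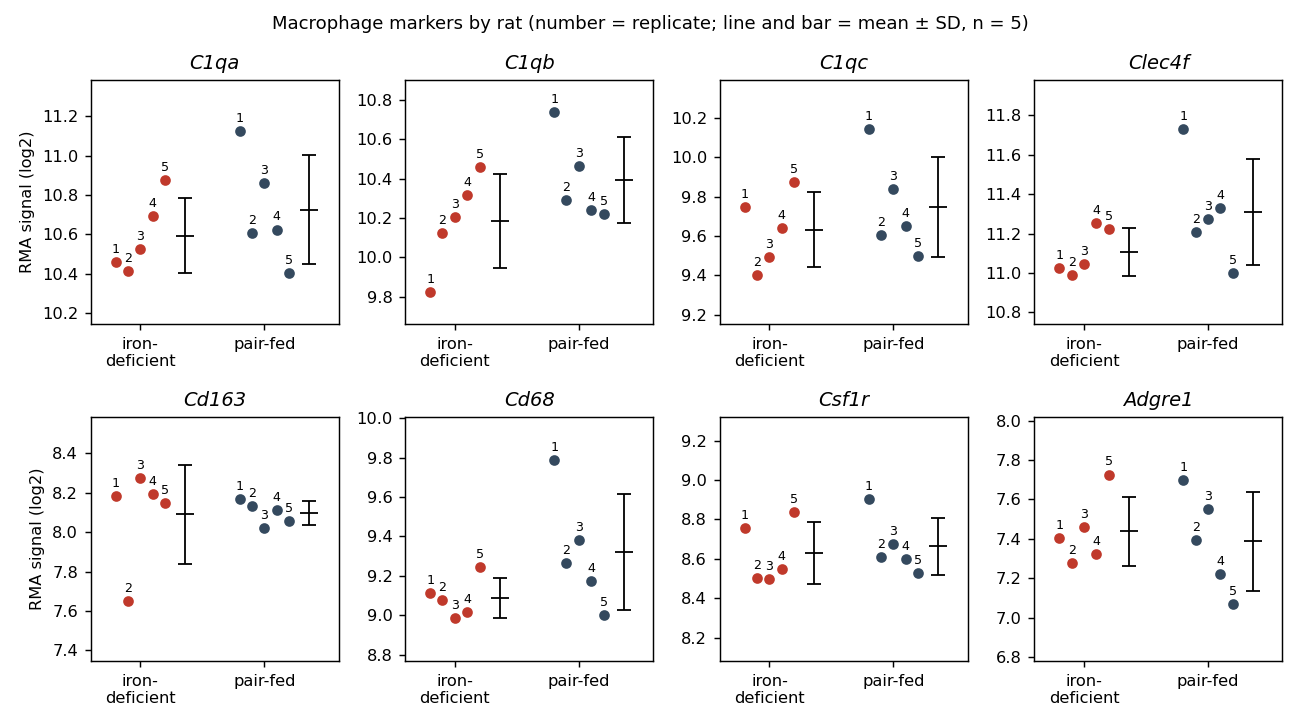
RMA signal (log2, vertical axis) of the 8 measured markers in each rat, with the 5 iron-deficient rats on the left and the 5 pair-fed rats on the right of each panel. Points carry the replicate number, the line and bar beside them are the mean and SD, every panel spans the same number of log2 units, and pair-fed rat 1 is the highest point in 6 of the 8 panels.

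The 95% intervals show the size of change that these arrays could have missed. Every interval included 0, those of 7 markers lay within 0.5 log2 units of 0, and the interval of Cd68 reached -0.50. The median SD within groups was 0.219 over the markers, against 0.136 over all probe sets, which include dim ones. The median over the brighter probe sets alone was not taken. None of the 8 markers was dim, that is, had a mean signal under 5. In RNA of whole liver, fewer macrophages and less of a transcript per macrophage cannot be told apart.

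**Figure D2:**
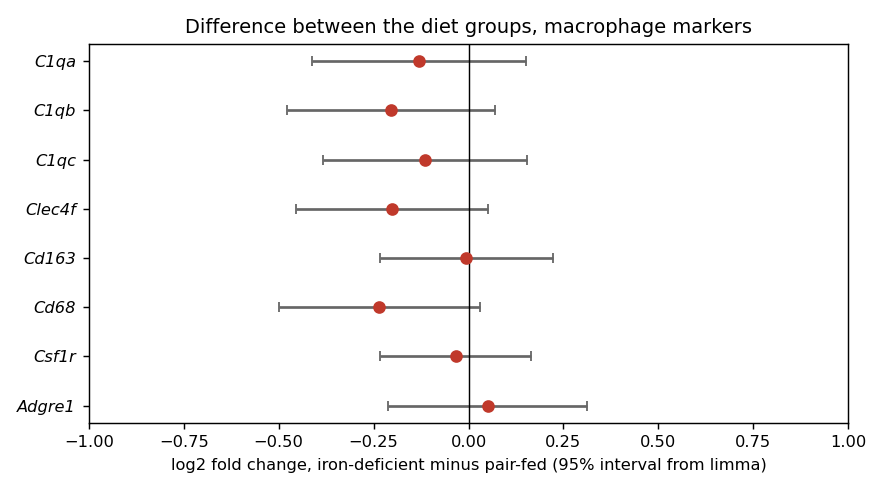
Log2 fold change of each measured marker (iron-deficient minus pair-fed, horizontal axis) with its 95% interval from limma, 1 gene per line. All 8 intervals cross 0, from the largest difference at -0.23 (Cd68) to 0.05 (Adgre1).

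Pair-fed rat 1 stood apart from the other rats in these markers. It was the highest of the 10 rats in 6 of the 8 markers, against 9.00% of the 21398 probe sets with a mean signal of 5 or more. Its markers lay 0.39 log2 units above the mean of the 10 rats on average, while those of iron-deficient rat 5 lay 0.15 above it and those of iron-deficient rat 2 lay 0.22 below (mean deviation -0.22). Iron-deficient rat 2 was the lowest in 3 markers, and pair-fed rat 5 (mean deviation -0.18) in 2.

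Without pair-fed rat 1 the median log2 fold change over the markers was -0.02 and 5 of the 8 had a lower mean in the iron-deficient group. Its removal brought Cd68 to -0.12, Clec4f to -0.10, C1qb to -0.12, C1qa to -0.03 and C1qc to -0.02, and Csf1r to 0.03. For the array of this rat the mean correlation with the other arrays was 0.994 and the difference between the 3′ and 5′ probe sets of Gapdh, a sign of RNA quality, was 0.07. The array farthest from the rest was iron-deficient rat 1, with a mean correlation of 0.992 and a Gapdh difference of 0.36, against -0.05 to 0.11 in the other 9 arrays. Without it the median over the markers was -0.11, but C1qb, in which this rat was the lowest, was at -0.11 in place of -0.20.

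The markers went up and down together from rat to rat. After each diet group was centred on its own mean, the correlation over the 10 rats was above 0 in all 28 pairs of markers, with a median Pearson r of 0.77, or 0.62 without pair-fed rat 1. Of the 28 pairs, 17 had a Benjamini-Hochberg adjusted p under 0.05 by Pearson's r and 4 by Spearman's rho, with exact permutation tests over the 14400 orders within the groups. The pairs reuse the same 8 genes and 10 rats and are not independent. The same count over pairs of other probe sets was not taken, so how far it is particular to the markers was not tested. Cd163 stood outside this pattern, since r was 0.08 to 0.38 in its 7 pairs.

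C1qa and C1qb, 2 chains of the same protein, had r = 0.875 (exact permutation p = 0.000833; adjusted p = 0.00778) and rho = 0.879 (exact permutation p = 0.0025; adjusted p = 0.0228). Without the 2 rats farthest from the median of C1qa, r was 0.674. C1qa and C1qc had r = 0.901 (exact permutation p = 0.00222; adjusted p = 0.00778) and rho = 0.806 (exact permutation p = 0.0140; adjusted p = 0.0561), and r = 0.709 without the 2 farthest rats. C1qb and C1qc were further apart, with r = 0.619 (exact permutation p = 0.0773; adjusted p = 0.108) and rho = 0.564 (exact permutation p = 0.118; adjusted p = 0.178). Iron-deficient rat 1 was the lowest in C1qb but not in C1qc, and r was 0.877 without that rat and pair-fed rat 1. The highest r of all pairs was 0.944 for Csf1r and C1qc (exact permutation p = 0.000278; adjusted p = 0.00486), with rho = 0.891 (exact permutation p = 0.00326; adjusted p = 0.0228) and r = 0.850 without the 2 farthest rats.

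The sequences upstream of the C1q genes are shown because these genes lie next to each other on chromosome 5, in the order C1qb, C1qc and C1qa, and that of Cd68 because it had the largest difference. They are the 250 bases before the transcript start in RefSeq (GRCr8), written 5′ to 3′ on the strand of the gene, which is the minus strand in each case. Capitals mark the letters GAGGAA, the core of the PU.1 motif, or TGCTGA, a MAF half-site, on either strand (TTCCTC and TCAGCA on the other). The windows are chr5:154419934-154420183 for C1qa, chr5:154407828-154408077 for C1qb and chr10:54882442-54882691 for Cd68.
C1qa: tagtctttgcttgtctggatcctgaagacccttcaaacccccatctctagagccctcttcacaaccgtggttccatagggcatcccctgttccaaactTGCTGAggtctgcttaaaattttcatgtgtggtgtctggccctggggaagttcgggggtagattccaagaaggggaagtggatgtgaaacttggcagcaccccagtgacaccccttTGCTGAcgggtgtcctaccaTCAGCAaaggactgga
C1qb: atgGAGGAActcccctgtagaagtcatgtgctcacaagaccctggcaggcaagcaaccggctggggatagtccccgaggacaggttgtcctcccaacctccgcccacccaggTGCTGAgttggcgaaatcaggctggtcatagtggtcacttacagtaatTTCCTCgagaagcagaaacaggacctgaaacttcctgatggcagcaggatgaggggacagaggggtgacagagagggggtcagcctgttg
Cd68: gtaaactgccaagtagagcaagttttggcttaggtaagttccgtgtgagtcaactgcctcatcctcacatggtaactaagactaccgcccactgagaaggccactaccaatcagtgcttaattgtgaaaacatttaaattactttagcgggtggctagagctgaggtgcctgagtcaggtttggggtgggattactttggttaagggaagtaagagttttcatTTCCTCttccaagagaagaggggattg

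C1qa held 3 matches to the MAF half-site and 0 to the PU.1 core, C1qb held 1 and 2, and Cd68 held 0 and 1. A promoter was found for 9 of the 10 markers, all but C1qc, and 5 of the 9 held the PU.1 core and 3 the MAF half-site. The windows of Csf1r, Cd163 and Adgre1 ended inside the annotated gene. That of Csf1r ended at base 56834378 of chromosome 18, whereas the gene starts at 56834152. Over all 33469 rat promoters of the same length, 23.3% held the PU.1 core and 15.1% the MAF half-site. A match is a description of the sequence only. Cd163, Clec4f and Vsig4 held no match to either.

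The genes whose signals followed the markers most closely were sought among the probe sets with a mean signal of 5 or more. The 8 with the highest Pearson r over the 10 rats, after centring each group, with the mean of the standardized markers were Fcer1g (r = 0.97), Ctss (0.95), Marchf1 (0.95), Clec4a3 (0.94), Cyba (0.94), Lilra5 (0.94), Ctla2a (0.94) and Zfp862 (0.93). Fcer1g encodes the signalling chain shared by Fc receptors, Ctss cathepsin S, a protease of antigen-presenting cells, and Cyba a subunit of the NADPH oxidase of phagocytes. An r over 0.8 was found for 0.682% of the 21398 probe sets. These r values share the same arrays and were picked as the highest, so they are given without a test. None of the 8 genes passed the RP method, and Fcer1g had a log2 fold change of -0.09 (SE 0.125). Ctla2a had a higher mean in the iron-deficient group (0.10, SE 0.102), and all the others a lower one. Which cells gave the signals of the 8 genes was not tested.

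**Figure D3:**
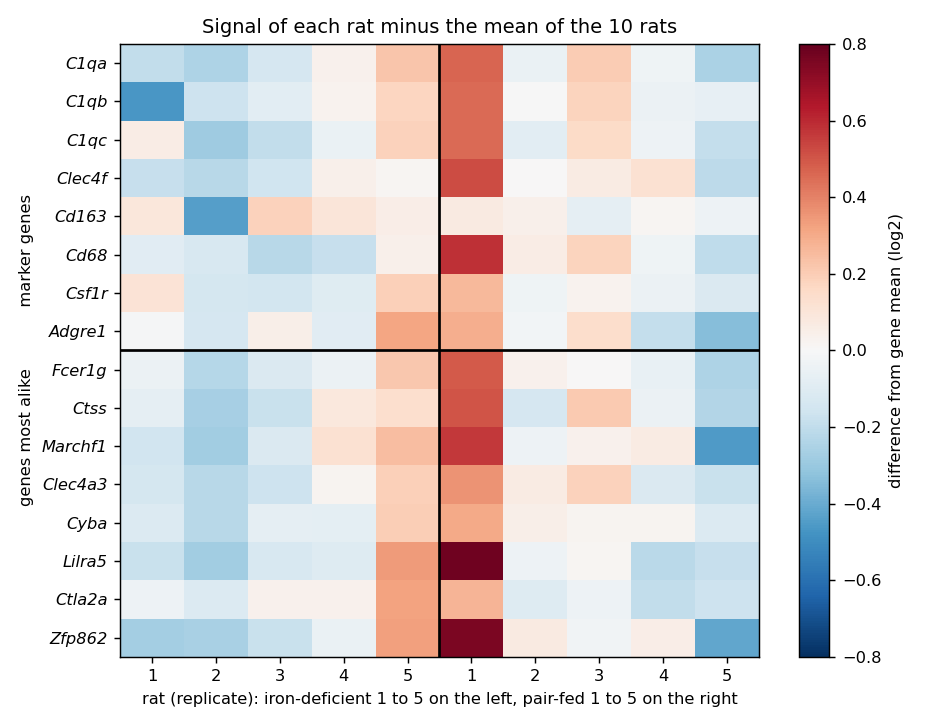
Signal of each rat minus the mean of the 10 rats (log2, colour scale) for the 8 markers above the line and the 8 genes most like them below it. Columns are iron-deficient rats 1 to 5 on the left and pair-fed rats 1 to 5 on the right. Pair-fed rat 1 is the reddest column, and Cd163 is the marker in which that rat does not stand out.

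Further genes of macrophages were compared in the same way, and 0 of them passed the RP method. Of 30 further macrophage genes 25 were measured, with 6 higher and 19 lower means in the iron-deficient group and a median log2 fold change of -0.08, against 0.00 over all probe sets. These are the brightest probe sets, and the direction depended on that choice for Aif1, Ptprc and Cybb. By another probe set Aif1 was at 0.09 in place of -0.07, Ptprc at 0.10 in place of -0.08 and Cybb at -0.05 in place of 0.19. The other probe sets of Cd5l (-0.06), Laptm5, Mertk and Cd86 kept the direction. Without pair-fed rat 1, 14 of the 25 had a lower mean and the median was -0.01, and that rat was the highest of the 10 in 14 of the 25 genes. The brightest were Cd5l, a secreted protein of tissue macrophages (log2 fold change -0.16, SE 0.212), Nr1h3, the sterol-sensing receptor LXR alpha (-0.10, SE 0.0634), Mrc1, the mannose receptor (-0.03, SE 0.0651), and Ctss (-0.12, SE 0.132). Cd5l had signals of 10.01 to 11.02 in the iron-deficient rats and 10.43 to 11.41 in the pair-fed rats, with pair-fed rat 1 again the highest. Without that rat the log2 fold change was 0.0029 for Cd5l and -0.0092 for Ctss, and Mrc1 was at 0.01 without iron-deficient rat 2.

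Cd14 and Spic were singled out after their values were seen. Cd14, a receptor for bacterial lipopolysaccharide, had signals of 10.22, 9.71, 9.89, 10.33 and 10.21 in the iron-deficient rats, against 10.60, 9.65, 10.25, 11.26 and 10.51 in the pair-fed rats. The pair-fed values had the lowest and the highest rat of all and enclosed those of the iron-deficient rats, and the log2 fold change was -0.38 (SE 0.235; limma adjusted p = 0.782; RP FDR = 0.0844). The difference changed in size, but not in sign, with single rats left out. It was -0.18 without pair-fed rat 4, the highest, and -0.58 without pair-fed rat 2, the lowest, and of the 10 settings with 1 array left out Cd14 passed the RP method in 1, that without pair-fed rat 2. Spic, the transcription factor of red pulp and other iron-recycling macrophages in mice, had means of 4.92 ± 0.132 in the iron-deficient group and 5.20 ± 0.188 in the pair-fed group (SD, n = 5 each), a log2 fold change of -0.28 (SE 0.0962; limma adjusted p = 0.623; exact permutation p = 0.0476; RP FDR = 0.339).

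The list of macrophage cytokines and chemokines also held the enzymes Nos2 and Arg1, both with higher means in the iron-deficient group. It gave 7 higher and 9 lower means among 16 measured genes, with a median log2 fold change of -0.02 and 0 past the RP method. The genes of iron recycling gave 4 higher and 6 lower means among 10 measured of 13, with a median of -0.02 and 0 past the RP method. Arg1 (mean signal 14.17) and, among the iron recycling genes, Hp (14.74) and Cp (13.97) were very bright. Which cells of the liver gave these signals was not tested. Both medians turned in sign with 1 array left out, to 0.00051 for the cytokines and chemokines without pair-fed rat 1 and to 0.0066 for iron recycling without iron-deficient rat 4. Among the iron recycling genes Hmox1, the heme oxygenase that frees iron from heme, was singled out after its values were seen. It had signals of 8.89, 8.44, 8.42, 8.75 and 8.49 in the iron-deficient rats, against 8.57, 8.87, 8.93, 8.70 and 10.19 in the pair-fed rats. Pair-fed rat 5 stood far above the others, and the log2 fold change of -0.46 (SE 0.250; limma adjusted p = 0.758; RP FDR = 0.122) was -0.17 without it.

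Markers of the other cells that whole liver holds were set beside those of the macrophages. The measured markers of monocytes (6 genes, median log2 fold change 0.04), liver endothelial cells (8 genes, 0.06), hepatocytes (9 genes, 0.02), cholangiocytes (5 genes, -0.01), T and NK cells (10 genes, -0.10), B cells (3 genes, -0.08) and neutrophils (5 genes, -0.10) had 0 genes past the RP method. Of 10 stellate cell genes (median 0.17) Lum, a proteoglycan of the matrix, passed as higher in the iron-deficient group (log2 fold change 0.78, SE 0.280, limma adjusted p = 0.644), at a mean of 5.11 ± 0.684 in the iron-deficient group and 4.33 ± 0.349 in the pair-fed group (SD, n = 5 each). Lum was dim, with a mean of 4.72 over the 10 arrays, so it was not tested where dim probe sets were left out. It did not pass by the rank sum or without iron-deficient rat 1 (log2 fold change 0.54), the array with the high Gapdh difference. Col1a1, a collagen chain, was just outside the threshold (log2 fold change 0.46, RP FDR = 0.0508). It passed after a second quantile normalization, without iron-deficient rat 2 and without pair-fed rat 3, so that the stellate count was then 2. It passed in no other setting with 1 array left out, and was at 0.26 without iron-deficient rat 1. The other probe set of Col1a1 was at 0.36 and did not pass (RP FDR = 0.222). Several of the cell type medians turned in sign with 1 array left out. Without pair-fed rat 4 the median was 0.05 for neutrophils, in place of -0.10, and 0.02 for B cells, in place of -0.08. Without iron-deficient rat 1 it was -0.0041 for monocytes and 0.04 for cholangiocytes. Dim probe sets made up 6 of the 10 T and NK cell genes, 3 of the 5 neutrophil genes, 2 of the 6 monocyte genes and 2 of the 5 cholangiocyte genes. The hepatocyte genes were bright in all arrays, with a mean of 13.99 to 14.11 in the iron-deficient rats and 14.00 to 14.11 in the pair-fed rats.

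Red cell precursor genes were the exception among the lists. Of the 7 measured, 6 passed the RP method as lower in the iron-deficient group, namely Hemgn (log2 fold change -1.23), Ahsp (-1.08), Alas2 (-0.96), Slc4a1 (-0.74), Rhd (-0.68) and Hbb (-0.67), and 0 of them by limma. These are the brightest probe sets, and the calls depended on that choice for Slc4a1 and Kel, a blood group antigen. The other probe set of Slc4a1 was at -0.37 and did not pass (RP FDR = 0.108), whereas Kel was at 0.04 by its brightest probe set and at -0.56 by the other, which passed as lower (RP FDR = 0.00915). The mean over the list was 6.90 to 7.59 in the iron-deficient rats and 7.35 to 8.37 in the pair-fed rats. Pair-fed rat 1, the highest in the macrophage markers, was the lowest of the pair-fed rats in this list, at 7.35. The part of red cells or of other cells in the macrophage marker values was not tested.

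**Figure D4:**
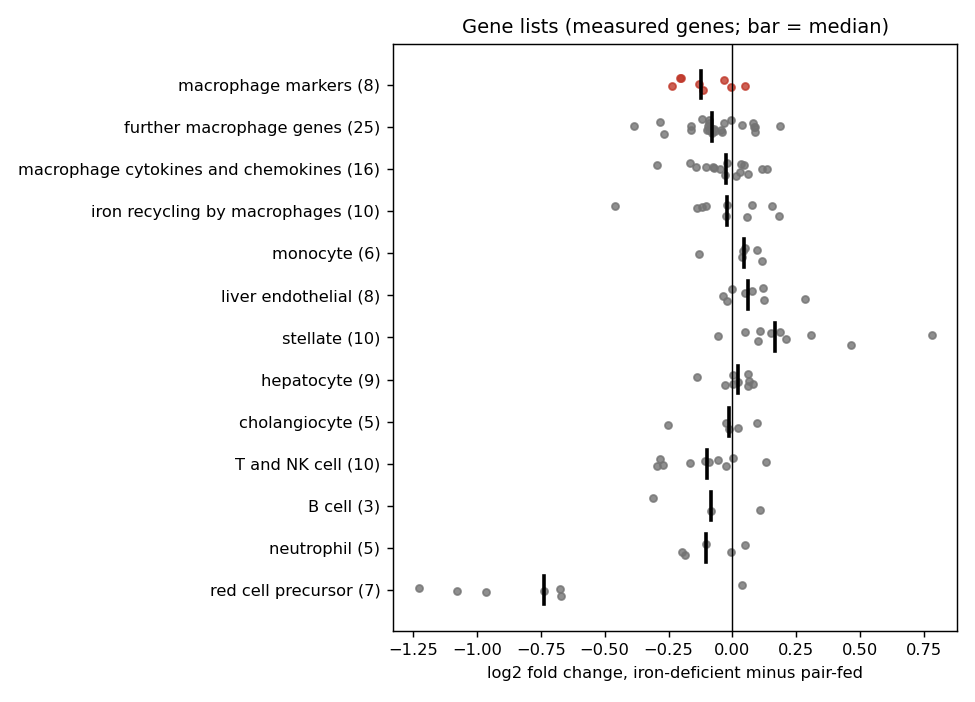
Log2 fold change (iron-deficient minus pair-fed, horizontal axis) of every measured gene of the markers and of 12 further lists, with the number of measured genes in brackets. Points are genes and black bars are medians, at -0.12 for the macrophage markers and -0.74 for the red cell precursor genes. Points are shifted up or down at random so that they do not cover each other.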

How the data were processed

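Affymetrix rat genome arrays gave hepatic expression in 10 rats (1 array per rat, 5 rats per diet). The deposited values are log2 signals that the authors computed with RMA (background correction, quantile normalization and summary per probe set), with medians of 6.19 to 6.22 per array, and they were used without further normalization. All columns of values were used (0 left out). After 57 control probe sets were left out, 31042 were tested, of which the annotation pairs 20826 with 1 gene, 436 with several and 9780 with none. By Entrez ID, 20758 were found in a GRCr8 gene table of RefSeq, and 0 symbols changed.

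RP ran in Python 3.11.15 (scipy 1.17.1, numpy 2.4.6 and pandas 2.3.3; 25 differences, 100 permutations within arrays, FDR under 0.05), and fold changes with limma 3.58.1 in R 4.3.3 and Benjamini-Hochberg adjustment over all probe sets. Both were run on simulated data in which probe sets varied independently of each other, unlike the markers here. That run does not show how the methods perform on correlated probe sets. RP does not weigh the spread between rats. Exact permutation tests were 2-sided, with a smallest p of 0.00794 for 5 against 5. Figures were drawn with matplotlib 3.10.9. For lists, the brightest probe set stood for a gene. Named were all markers, list genes past RP, the 4 brightest further macrophage genes and the 8 genes most like the markers, while Cd14, Spic, Hmox1, Col1a1 and Kel were added after their values were seen. Markers and lists were chosen with earlier results of these data known. The number of arrays limits the precision.

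Alternatives were limma in place of RP, the rank sum, leaving out dim probe sets, median centring, a second quantile normalization, array weights, the replicate number as a block and leaving out each array.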

Additional observations from a re-analysis of the deposited data

Results flagged for a closer look

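Single rats lay far from the rest of their group in 6 of the 62 groups checked (31 genes, both diets), where the gap to the nearest rat exceeded Dixon's limit of 0.71 of the range. Chance gives such a gap in about 1 in 20 groups where genes are picked without regard to their values. Lilra5 was picked for following the markers, and Hmox1 and Col1a1 after their values were seen. The count of 6 can therefore not be set against that rate. For Cd163, iron-deficient rat 2 was the lowest at 7.65, against 8.15 to 8.28 in the other iron-deficient rats. For Nr1h3, pair-fed rat 5 was the lowest at 10.49, against 10.60 to 10.65 in the other pair-fed rats. Lilra5 had a high rat in each group, iron-deficient rat 5 at 6.07 against 5.44 to 5.62 in the other iron-deficient rats, and pair-fed rat 1 at 6.50 against 5.51 to 5.74 in the other pair-fed rats. For Hmox1, pair-fed rat 5 was the highest at 10.19, against 8.57 to 8.93 in the other pair-fed rats. For Col1a1, pair-fed rat 3 was the highest at 7.72, against 6.88 to 7.09 in the other pair-fed rats.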

How the results depend on the processing

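The count of markers past RP was 0 in each direction under every alternative but array weights, with which RP was not run. The count of markers whose groups did not overlap was 0 after median centring, a second quantile normalization and leaving out each array. The other alternatives leave the marker signals as they are, so they could not change that count. The lowest limma adjusted p of any marker was 0.660. Of 120 alternative log2 fold changes 7 turned in sign, in the markers with differences near 0. The 120 include the replicate block and the leaving out of dim probe sets, which could not change the log2 fold change of any marker. Cd163 was 0.0019 after the second quantile normalization. With each array left out in turn, Cd163 ran from -0.052 to 0.10 (0.10 without iron-deficient rat 2, 0.01 without pair-fed rat 1 and 0.0034 without pair-fed rat 2), Csf1r from -0.087 to 0.026 (0.026 without pair-fed rat 1) and Adgre1 from -0.029 to 0.13 (-0.02 without iron-deficient rat 5, -0.029 without pair-fed rat 5). Cd68 ran from -0.31 to -0.12, Clec4f from -0.28 to -0.10, C1qb from -0.27 to -0.11, C1qa from -0.21 to -0.03 and C1qc from -0.18 to -0.02. Of the further macrophage genes 0 to 1 passed as lower, the 1 being Cd14 without pair-fed rat 2, and the cause was not tested. Cd14 was at -0.58 there and at -0.18 without pair-fed rat 4.

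With the replicate number as a block, 0 markers passed in either direction, and RP called 85 probe sets as higher and 149 as lower. With 1 rat per diet in each block, the log2 fold changes equal those without it by construction (Cd68 at -0.23). Same-numbered rats did not deviate together over all probe sets (correlations of -0.04 to 0.09). The labels do not say whether the numbers pair the rats, and these correlations cannot settle it, since pairing by food intake need not shift most probe sets. Over all probe sets the rank sum called 5 as higher and 29 as lower, and limma called 0, against 94 and 174 by RP. Without iron-deficient rat 2, 3 or 5 RP called 47, 53 and 56 as higher, and 90, 113 and 99 were called as lower without pair-fed rat 2, 3 or 5, and 115 without iron-deficient rat 5. Each marker had 1 probe set, so a mean over probe sets equals the value given.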
